A study of Homo sapiens with 6 samples.

Results

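The aminoacyl-tRNA synthetases are the enzymes that join each amino acid to its matching tRNA before translation. Their RNA, and that of a pair of scaffold proteins that hold several of them together, was read on bead arrays from the human chondrosarcoma line SW1353 with and without interleukin-1 alpha (IL-1). The members were taken from a list of 37 gene symbols: 17 cytosolic synthetases or subunits, 16 mitochondrial synthetases, 2 synthetases (GARS1 and KARS1) that serve both compartments, and 2 scaffolds (AIMP1 and AIMP2). Of the 37, 35 had a named probe and 32 were tested, out of 9078 genes tested in all. The IL-1 group held 3 arrays, of SW1353 cells serum-starved for about 20 h before 6 h with 0.5 ng/ml IL-1. The control group held 3 arrays, of the same line, starved in the same way and left without IL-1. The study thus rests on 1 line, and whether the samples are separate cultures is not in the labels, so the p-values measure the spread between these arrays, which may be technical.

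The cytosolic enzymes charge tRNAs for the bulk of protein synthesis, and a separate, nuclear-encoded set, largely made from other genes, is imported into mitochondria to charge the mitochondrial tRNAs. Several cytosolic enzymes sit in the multi-synthetase complex around the scaffolds AIMP1 and AIMP2. Many cytosolic synthetase genes are known targets of ATF4, the transcription factor of the amino acid response, while WARS1, which encodes the cytosolic tryptophanyl-tRNA synthetase, is known for its induction by interferon-gamma.

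Titles follow 2 patterns, each of which is called a title series here: replicates 1 and 2 of each group are titled Allstars and replicate 3 of each group is titled Sample. What the patterns stand for is not in the labels. Between 11954 and 13070 probes on the IL-1 arrays and between 12650 and 13357 on the control arrays were well above background (detection p under 0.01). The chondrocyte factor SOX9 was well above background on 6 of 6 arrays, whereas the defining cartilage matrix genes COL2A1 and ACAN were so on 0 arrays, as were COL9A1 and MATN3. COL11A1, a further cartilage collagen, was well above background on 5 arrays. SOX9 itself fell, with a log2 fold change of -0.94 ± 0.18 (SE, limma adjusted p = 0.0186). Of 5 leukocyte markers with a probe, only CD68 was well above background on any array, and of 3 endothelial markers only VWF was. Of 3 epithelial markers only EPCAM was, on 2 arrays. CD68 differed by 0.28 ± 0.24 and VWF by -0.62 ± 0.26, and neither was called without a block for title series. With it CD68 rose (limma adjusted p = 0.0106) and VWF fell (limma adjusted p = 0.0146), and their part in the results on the synthetases was not tested. Over all genes tested, 552 rose and 267 fell (limma, Benjamini-Hochberg adjusted p under 0.05).

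WARS1 was the 1 member that changed in the fit without a block, and it rose about 4-fold. Its normalized log2 signals were 11.96, 12.04 and 11.41 on the IL-1 arrays, against 9.89, 9.74 and 9.62 on the control arrays. All 3 IL-1 arrays lay above all 3 control arrays, and the Sample array was the lowest of each group. The mean was 11.80 ± 0.34 with IL-1 and 9.75 ± 0.13 in controls (SD, n = 3 each). The log2 fold change was 2.05 ± 0.19 (SE), or 4.15-fold, with a limma adjusted p of 3.96e-04 and a 95% interval from 1.62 to 2.49. On the deposited linear scale, before any normalization, the same probe read 2499, 1949 and 5331 on the IL-1 arrays and 704, 458 and 1572 on the control arrays. In these total RNA samples, more WARS1 RNA in every cell and WARS1 RNA in more of the cells cannot be told apart.

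A further WARS1 probe gave the same picture. It read 11.47, 11.42 and 11.12 log2 units on the IL-1 arrays, against 9.01, 9.02 and 9.18 on the control arrays. Again the groups were fully separate. The log2 fold change by this probe was 2.27, or 4.81-fold. Within the title series, the first probe differed by 2.19 in the Allstars arrays and by 1.79 in the Sample arrays, and the difference between these responses did not pass (limma interaction adjusted p = 0.796). In a fit blocked by title series, the SE was 0.09 and the limma adjusted p was 4.42e-10. Among the 552 genes that rose, WARS1 ranked 180th by fold change.

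**Figure D1:**
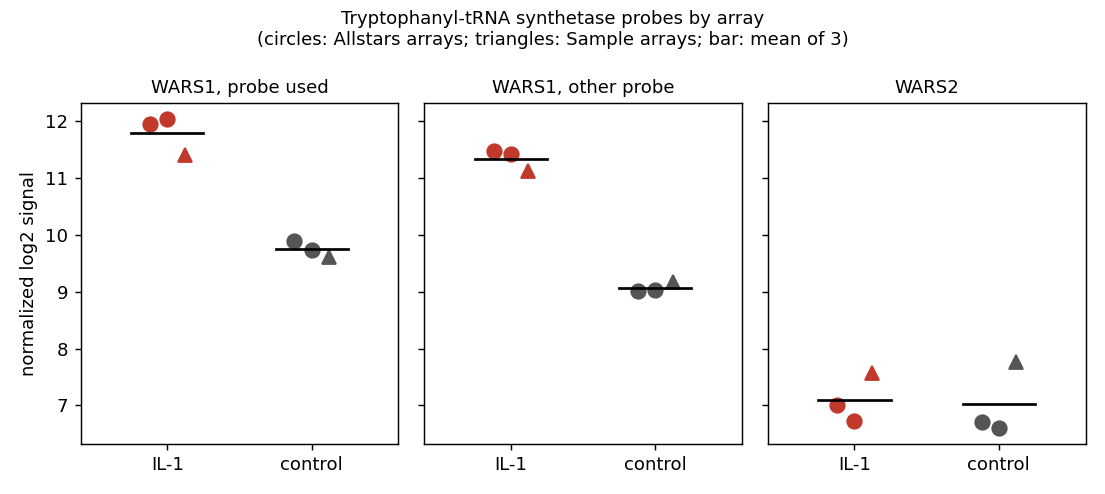
Normalized log2 signal (vertical axis) of the 2 WARS1 probes and of the WARS2 probe on the IL-1 arrays (red) and the control arrays (grey). Circles are Allstars arrays, triangles Sample arrays and bars means of 3 arrays. Both WARS1 probes lie fully higher with IL-1, while the WARS2 values of the groups overlap. Levels are not comparable between probes.

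WARS1 lies on chromosome 14 at 100333790 to 100376327 on the minus strand (GRCh38.p14, RefSeq). RefSeq's promoter table holds 2 starts of WARS1, 980 bases apart. The 250 bases before each are shown because the only matches of interferon-type motifs near this gene's starts are in the downstream window. Capitals mark a match to the interferon-stimulated response element, searched as GAAA, any 2 bases and GAAA, and to the gamma-activated site, searched as TTCNNNGAA, on either strand.
WARS1, upstream start, chr14:100376328-100376577, minus strand: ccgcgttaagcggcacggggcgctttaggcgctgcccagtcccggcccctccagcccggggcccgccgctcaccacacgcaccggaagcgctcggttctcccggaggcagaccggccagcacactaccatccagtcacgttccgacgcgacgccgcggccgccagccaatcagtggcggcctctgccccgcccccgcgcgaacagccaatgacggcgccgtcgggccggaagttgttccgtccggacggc
WARS1, downstream start, chr14:100375348-100375597, minus strand: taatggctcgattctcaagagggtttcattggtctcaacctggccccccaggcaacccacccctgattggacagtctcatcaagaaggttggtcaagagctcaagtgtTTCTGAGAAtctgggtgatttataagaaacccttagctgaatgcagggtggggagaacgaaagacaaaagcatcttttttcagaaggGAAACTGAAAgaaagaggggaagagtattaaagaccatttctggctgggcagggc
The response element match begins 55 bases and the gamma-activated site match 142 bases before the downstream start. Windows of 300 bases (250 before and 50 after a start) were searched. The response element letters occurred in 3.57% of all 35116 such windows and 4.38% of all genes with a window, and the gamma-activated site letters in 7.66% and 9.38%. Of the 32 members with a window, EARS2 and WARS1 held the first, and CARS1, PARS2, TARS1, WARS1 and WARS2 held the second. WARS1 alone among them held both, but a match describes letters only, and the array does not tell which start was used.

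The mitochondrial counterpart, WARS2, charges tryptophan to the mitochondrial tRNA. Its signals were 7.003, 6.72 and 7.57 on the IL-1 arrays, against 6.71, 6.60 and 7.76 on the control arrays. The groups overlapped, and in both the Sample array was the highest. The log2 fold change was 0.07 ± 0.36 (SE), with a 95% interval from -0.76 to 0.91 and a limma adjusted p of 0.942.

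Set beside WARS1 was a list named interferon-gamma-type genes, all of which were taken up knowing that they rise in these data. The name is a label only, and whether any interferon acted, and which, was not tested. Of the 8 tested, 8 rose, where 6.08% of all genes rose. CXCL10 and IDO1 passed the detection filter only through the IL-1 arrays. The median log2 fold change of the 8 was 3.62, or 3.42 with CXCL10 and IDO1 at their lower bounds. IRF1, a transcription factor induced by interferon-gamma, rose by 2.57 ± 0.24 (limma adjusted p = 4.00e-04), more than WARS1 by the fitted values. IFIT3, an antiviral effector, rose by 5.19 ± 0.24. CXCL10, a T-cell attractant, was not well above background on any control array and rose at least 317-fold. The limma adjusted p of its fitted value was 4.01e-08.

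Tryptophan is the substrate of WARS1. Of 8 tested genes of tryptophan uptake and breakdown, 3 rose and 0 fell without the block (37.5% rose, where 6.08% of all genes did). With title series as a block the same count rose, where 1181 of all 9078 genes did, and 3 fell (37.5%, where 22.2% of all genes fell). Among those that rose, IDO1 and TDO2 passed the detection filter only through the IL-1 arrays. The share that rose, and the p-values of IDO1 and TDO2, thus partly reflect that filter and give no support of their own. IDO1, the inducible enzyme that opens the kynurenine pathway, read 8.55, 8.996 and 8.03 log2 units on the IL-1 arrays, against 4.63, 4.43 and 4.39 on the control arrays. No control array had it well above background, so the change is a lower bound of at least 5.93-fold. The limma adjusted p of its fitted value was 7.17e-05. TDO2, which catalyses the same first step, rose at least 1.77-fold from below background (limma adjusted p = 0.00670 for the fitted value). KYNU, or kynureninase, a later enzyme of that pathway, rose by 1.44 ± 0.18, with a limma adjusted p of 0.00182. The 3 that fell with the block, named after their values were seen, were SLC3A2, a chain of amino acid transporters, at -0.43 ± 0.17, AFMID, which acts between IDO1 and KYNU in the pathway, at -0.52 ± 0.23, and KYAT1, a kynurenine aminotransferase, at -0.55 ± 0.22.

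Apart from WARS1, no synthetase was called in the fit without a block. Of the 32 tested members 1 rose and 0 fell, a share of 3.12% that rose, where 6.08% of all genes rose, 2.94% fell and 9.02% were called in either direction. The other 31 had log2 fold changes between -0.45 for SARS1 and 0.31 for KARS1 and limma adjusted p-values of 0.170 or more. At an unadjusted limma p under 0.05, 0 of these 31 were higher and 5 were lower, where 897 of all 9078 genes were higher and 1114 lower. The 95% interval lay inside a 2-fold change in either direction for 30 of the 31, the exception being NARS2, whose interval ran from -1.16 to 0.58. The median log2 fold change of the 32 was -0.06, against -0.11 over all genes tested. Of the 32, 20 (62.5%) had a log2 fold change below 0, as had 65.4% of all genes.

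**Figure D2:**
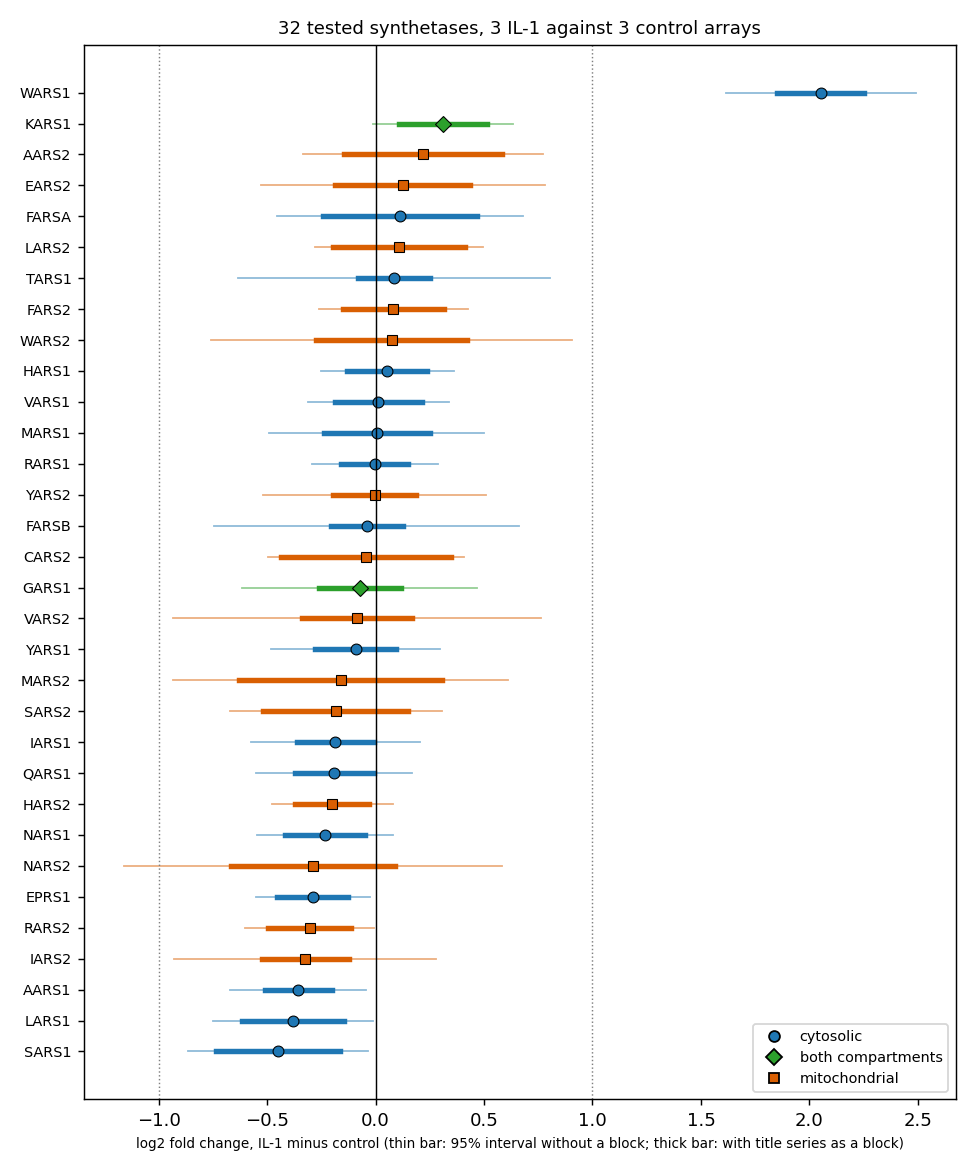
Log2 fold change, IL-1 minus control, of the 32 tested members (horizontal axis), 1 row per gene, by compartment. Thin bars are 95% intervals without a block, thick bars those with title series as a block, and dotted lines mark a 2-fold change. WARS1 stands at 2.05 and the other 31 lie between -0.45 and 0.31.

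For most members the difference between the title series was larger than that between the treatments, in 23 of 32 (71.9%), as it was for 57.8% of all genes tested. The median absolute difference between title series was 0.31 log2 units over the members, and that between treatments was 0.14. Each title series holds both groups, so fitting it as a block leaves the fold changes as they are and takes that spread out of the error. The median SE of the 31 members other than WARS1 was then 0.09, against 0.18 without the block. With the block, 9 of the 32 members were called (28.1%), where 35.2% of all genes were. Of the 9, 2 rose, where 1181 of the 9078 genes did, and 7 fell (21.9%), where 22.2% of all genes did. The share of members that fell was near that of all genes. Of the 7, AARS1, LARS1, RARS2 and SARS1 were also called with the block after scaling to equal medians and on the authors' deposited log2 values. Both settings were added after seeing the data, and the share of all genes called in them was not counted. The members described with values per array below were chosen after these results were seen.

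**Figure D3:**
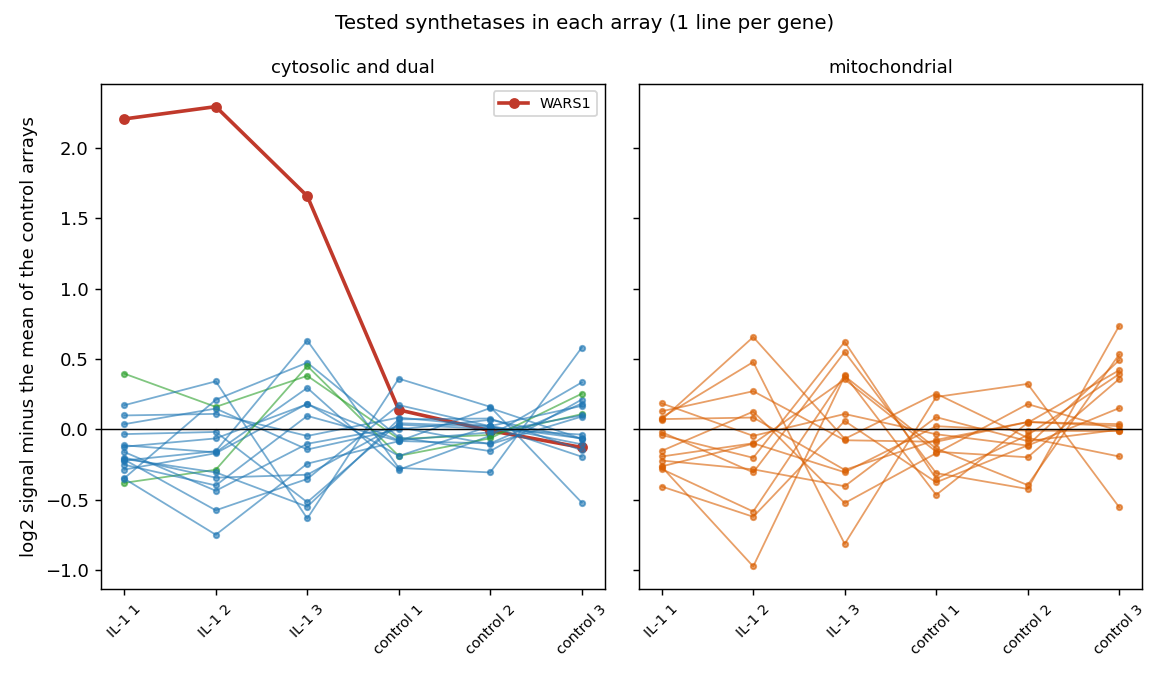
Log2 signal of each tested member minus the mean of its 3 control arrays (vertical axis) on each array, IL-1 arrays left of control arrays. Each line joins the values of 1 gene, with WARS1 in red, the other cytosolic members in blue, GARS1 and KARS1 in green and the mitochondrial members in orange. WARS1 separates on the 3 IL-1 arrays, and the other lines spread around 0 in both groups.

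Of the tested members, 7 belong to the multi-synthetase complex, namely EPRS1, IARS1, LARS1, MARS1, QARS1, RARS1 and KARS1. None was called without the block. With it, 1 rose and 2 fell (28.6%, where 22.2% of all genes fell). KARS1, which charges lysine in both the cytosol and the mitochondria, read 9.40, 9.16 and 9.38 on the IL-1 arrays, against 8.93, 8.96 and 9.11 on the control arrays. The IL-1 arrays all lay above the control arrays, narrowly for the nearest pair. KARS1 had a log2 fold change of 0.31 ± 0.14 (SE), with a limma adjusted p of 0.241 without the block and 0.0202 with it. The blocked call was lost on the authors' deposited log2 values (limma adjusted p = 0.0600), and KARS1 was not called in the Allstars arrays alone (limma adjusted p = 0.0515).

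LARS1, the leucyl enzyme, also known as a leucine sensor upstream of mTORC1, read 9.74, 9.38 and 9.61 on the IL-1 arrays, against 10.13, 9.98 and 9.77 on the control arrays. The groups did not overlap, but the difference was -0.49 in the Allstars arrays and -0.16 in the Sample arrays. EPRS1, which carries both the glutamyl and the prolyl activity in 1 chain, read 10.79, 10.65 and 10.67 on the IL-1 arrays, against 11.02, 10.99 and 10.95 on the control arrays. Its groups did not overlap either, and its differences of -0.29 in both title series were alike. Their log2 fold changes were -0.38 ± 0.16 (SE) for LARS1 and -0.29 ± 0.11 for EPRS1. The limma adjusted p was 0.210 for LARS1 and 0.182 for EPRS1 without the block, and 0.0152 and 0.00944 with it. IARS1 and QARS1 differed by -0.19 each and MARS1 by 0.01, and RARS1 hardly differed at all, with blocked limma adjusted p-values between 0.0979 and 0.981.

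The scaffolds gave no test. AIMP1 was well above background on 0 of 6 arrays, with values of 4.46, 4.50 and 4.51 on the IL-1 arrays and 4.60, 4.62 and 4.68 on the control arrays. AIMP2 had no named probe and was not analysed here, and neither was CARS1, the cytosolic cysteinyl enzyme.

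Among cytosolic synthetases outside the complex, AARS1, SARS1 and NARS1 fell in the blocked fit, where 22.2% of all genes fell, and were not called without it. SARS1, the seryl enzyme, had the lowest fold change of all members. It read 8.25, 7.85 and 8.36 on the IL-1 arrays, against 8.52, 8.75 and 8.54 on the control arrays. Every IL-1 array lay below every control array, although the Sample arrays differed by -0.18 and the Allstars arrays by -0.58. The log2 fold change was -0.45 ± 0.18 (SE), with a limma adjusted p of 0.190 without the block and 0.0176 with it.

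AARS1, the alanyl enzyme, read 11.57, 11.48 and 11.23 on the IL-1 arrays, against 11.85, 11.86 and 11.64 on the control arrays. The groups did not overlap, and the differences were -0.33 in the Allstars arrays and -0.40 in the Sample arrays. Its log2 fold change of -0.36 ± 0.13 (SE) had the lowest limma adjusted p of the 31, 0.170 without the block and 0.00153 with it. NARS1, the asparaginyl enzyme, read 11.15, 10.88 and 11.21 on the IL-1 arrays, against 11.33, 11.21 and 11.41 on the control arrays. There the highest IL-1 array exceeded the lowest control array, and the log2 fold change of -0.23 ± 0.13 (SE) had a limma adjusted p of 0.378 without the block and 0.0477 with it. The blocked call of NARS1 was lost after scaling to equal medians and on the authors' deposited log2 values. NARS1 was not called in the Allstars arrays alone (limma adjusted p = 0.0910), but was with the replicate number as a block (limma adjusted p = 0.0272).

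The remaining cytosolic members were not called by either fit. FARSA and FARSB, the subunits of the phenylalanyl enzyme, differed by 0.11 ± 0.24 and -0.04 ± 0.30 (SE). HARS1, VARS1, TARS1 and YARS1 (histidyl, valyl, threonyl and tyrosyl) had log2 fold changes between -0.09 and 0.08. GARS1, the glycyl enzyme of both compartments, read 11.80, 11.90 and 12.63 on the IL-1 arrays, against 11.99, 12.12 and 12.44 on the control arrays. It differed by -0.21 in the Allstars arrays and by 0.20 in the Sample arrays, and that difference did not pass (limma interaction adjusted p = 0.744).

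Of the 16 mitochondrial synthetases, 14 were tested and 0 were called without the block, where 9.02% of all genes were. At an unadjusted limma p under 0.05, 0 were higher and 1 was lower, where 897 of all 9078 genes were higher and 1114 lower. With the block, RARS2 and IARS2 fell (14.3%, where 22.2% of all genes fell). RARS2, the mitochondrial arginyl enzyme, read 9.59, 9.53 and 9.41 on the IL-1 arrays, against 9.90, 9.73 and 9.81 on the control arrays. These did not overlap, and the log2 fold change was -0.30 ± 0.13 (SE), with a limma adjusted p of 0.217, and 0.0162 once blocked. IARS2, the mitochondrial isoleucyl enzyme, read 10.46, 10.25 and 10.93 on the IL-1 arrays, against 10.49, 10.76 and 11.36 on the control arrays. Its groups overlapped, with the Sample array the highest of each, and within the title series the differences were -0.27 in the Allstars and -0.43 in the Sample arrays. IARS2's log2 fold change of -0.32 ± 0.26 (SE) had a limma adjusted p of 0.546 without the block and 0.0155 with it.

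The other 12 mitochondrial members had log2 fold changes between -0.29 for NARS2 and 0.22 for AARS2, and none was called by either fit. HARS2 was the 1 of them whose groups did not overlap, at 10.27, 10.37 and 10.16 on the IL-1 arrays, against 10.49, 10.46 and 10.46 on the control arrays (limma adjusted p = 0.0668 with the block). The start of HARS2 lies 85 bases from that of HARS1 on the opposite strand of chromosome 5, and HARS1 differed by 0.05 ± 0.13 (SE). MARS2, the mitochondrial methionyl enzyme, was well above background on 2 of 3 IL-1 and 3 of 3 control arrays. PARS2 was well above background on 0 arrays and TARS2 on 0 IL-1 arrays and 1 control array, and neither was tested.

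The median log2 fold change was -0.07 over the 16 tested cytosolic members, or -0.09 over the 15 without WARS1, and -0.06 over the 14 mitochondrial ones. The range without WARS1 was -0.45 to 0.11 for cytosolic members and -0.32 to 0.22 for mitochondrial ones. In the blocked fit, 5 of the 15 cytosolic members without WARS1 fell (33.3%), as did 2 of the 14 mitochondrial ones (14.3%), where 22.2% of all genes fell. The blocked SE ran from 0.07 for AARS1 to 0.16 for FARSA among these cytosolic members. Among the mitochondrial ones it ran from 0.08 for HARS2 to 0.22 for MARS2, so changes of like size were not equally easy to call. The difference between the compartments was not tested, since the members of each are not replicates. By catalytic fold, the 17 tested class I enzymes had a median of -0.04 and the 14 tested class II enzymes one of -0.06.

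Over the members, the IL-1 arrays lay all on 1 side of the control arrays for 8 of the 32, as they did for 28.2% of all genes, with 2 above and 6 below (18.8% below, against 17.1% of all genes). The log2 fold change had the same sign in both title series for 22 of the 32, and for 6904 of all 9078 genes tested. No member was called by limma's interaction of treatment and title series, with the lowest adjusted p at 0.721 for QARS1, and 3 members had an unadjusted p under 0.05. Over all genes 0.00% were called by the interaction, while 552 of 9078 had an unadjusted p under 0.05.

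**Figure D4:**
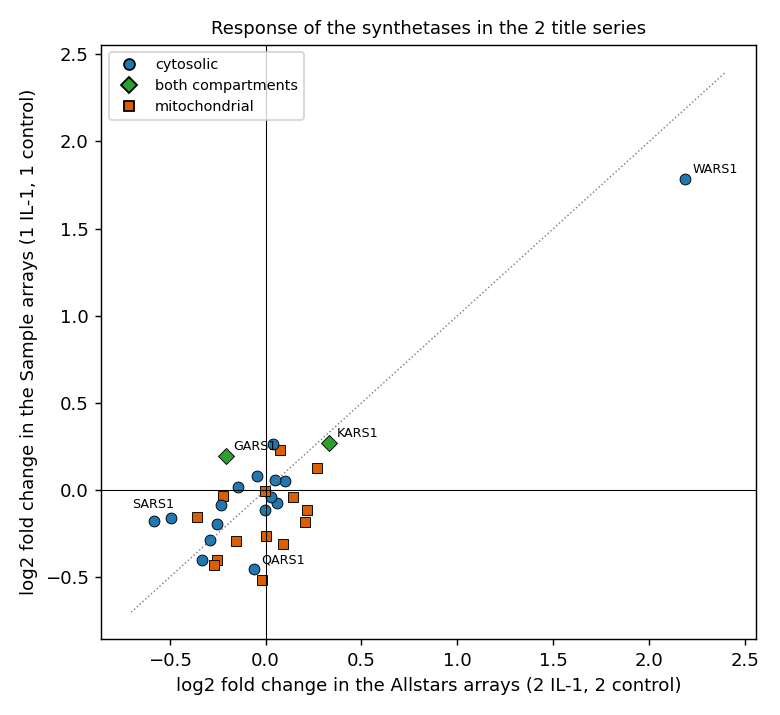
Log2 fold change of each tested member in the Sample arrays (vertical axis, 1 IL-1 and 1 control) against that in the Allstars arrays (horizontal axis, 2 and 2), by compartment. The dotted line marks equal values. WARS1 is high in both, at 2.19 and 1.79, and the other members crowd around 0.

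A C/EBP-ATF response element, through which ATF4 is known to act, was searched as TGATGNAA on either strand in the same 300-base windows. It occurred in 3.62% of all windows and in 4.46% of all genes with a window. Of the members it occurred in 6 of the 14 cytosolic members with a window, in GARS1 and in 1 of the 14 mitochondrial members with a window, YARS2. The matches are shown with 10 bases on each side (capitals mark the match, GRCh38.p14 from RefSeq), to let their positions and flanks be set beside the values of these genes.
AARS1, chr16:70289676-70289703, minus strand: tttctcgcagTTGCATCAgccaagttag
CARS1, chr11:3057408-3057435, minus strand: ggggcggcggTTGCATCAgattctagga
GARS1, chr7:30594835-30594862, plus strand: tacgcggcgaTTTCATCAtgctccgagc
IARS1, chr9:92293693-92293720, minus strand: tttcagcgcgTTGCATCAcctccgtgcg
MARS1, chr12:57488054-57488081, plus strand: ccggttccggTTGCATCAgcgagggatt
NARS1, chr18:57621805-57621832, minus strand: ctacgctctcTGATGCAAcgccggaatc
TARS1, chr5:33440957-33440984, plus strand: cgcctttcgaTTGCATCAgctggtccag
YARS2, chr12:32756077-32756104, minus strand: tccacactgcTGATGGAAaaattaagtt
The match of AARS1 began 187 bases and that of YARS2 197 bases before the start, and the others lay between 33 bases before and 14 bases after it. Of these genes, CARS1 was not measured, and of the other 7 none was called without the block. AARS1 and NARS1 fell with it, where 22.2% of all genes fell. Whether a match bears on these values was not tested. WARS1 held no such match in either window.

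The amino acid response was also read from a list of ATF4 and its known targets outside the synthetases. Of 28 tested genes, 2 rose and 0 fell, a share of 7.14% that rose where 6.08% of all genes did. At an unadjusted limma p under 0.05, 4 of the 28 were higher and 2 were lower, where 897 of all 9078 genes were higher and 1114 lower. CEBPB, a transcription factor also known as a target of inflammatory signals, rose by 1.87 ± 0.11 (limma adjusted p = 2.73e-05), and ATF5, a factor related to ATF4, by 1.37 ± 0.25 (limma adjusted p = 0.0125). ATF4 itself differed by 0.04 ± 0.10 and ASNS, the asparagine synthetase that is a standard readout of this response, by -0.06 ± 0.19 (limma adjusted p = 0.878 and 0.902). DDIT3, which encodes CHOP, differed by 0.37 ± 0.14 and TRIB3, a pseudokinase, by -0.17 ± 0.21, and of these 2 DDIT3 rose with the block (limma adjusted p = 0.00368). With the block, 4 of the 28 rose and 7 fell, where 1181 of all 9078 genes rose and 22.2% fell. The list median was -0.07, against -0.11 over all genes.

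In the control of eIF2alpha, 2 of 10 tested genes rose and 0 fell without the block, where 6.08% of all genes rose. Those that rose were EIF2AK2, the double-stranded RNA kinase PKR and itself interferon-induced, by 2.38 ± 0.20, and PPP1R15A, a phosphatase subunit, by 0.77 ± 0.13. With the block 2 rose, where 1181 of all 9078 genes did, and 3 fell (30.0%, where 22.2% of all genes fell). Chosen for naming once their values were known, these 3 were the haem-regulated kinase EIF2AK1 at -0.43 ± 0.17 and the eIF2B subunits EIF2B2 at -0.35 ± 0.13 and EIF2B4 at -0.49 ± 0.13. EIF2AK4, or GCN2, the kinase that senses uncharged tRNA, named here after its value was seen, differed by -0.28 ± 0.35 and was not called. Of the 8 tested genes of cytosolic elongation, the 7 elongation factors were not called by either fit (limma, 0 at an unadjusted p under 0.05 without the block), and the 1 gene that fell was EEF2K, the kinase that inhibits the factor EEF2, with a log2 fold change of -0.98 ± 0.18 (limma adjusted p = 0.0134). The 11 mitochondrial translation factors had a median of -0.23 with 0 rises and 0 falls without the block (1 higher and 2 lower at an unadjusted limma p under 0.05), and 1 rise and 5 falls with it (45.5% fell, where 22.2% of all genes did). In tRNA processing, modification and export, 0 of 19 were called without the block (1 higher and 1 lower at an unadjusted limma p under 0.05). With the block 2 rose, where 1181 of all 9078 genes did, and 3 fell (15.8%, where 22.2% of all genes fell). At an unadjusted limma p under 0.05 without the block, 897 of all 9078 genes were higher and 1114 lower. XPOT, the exporter of tRNAs from the nucleus, was well above background on 2 of 3 IL-1 arrays and differed by -0.62 ± 0.70 (limma adjusted p = 0.691). With the block it fell (SE 0.22, limma adjusted p = 0.0453).

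**Figure D5:**
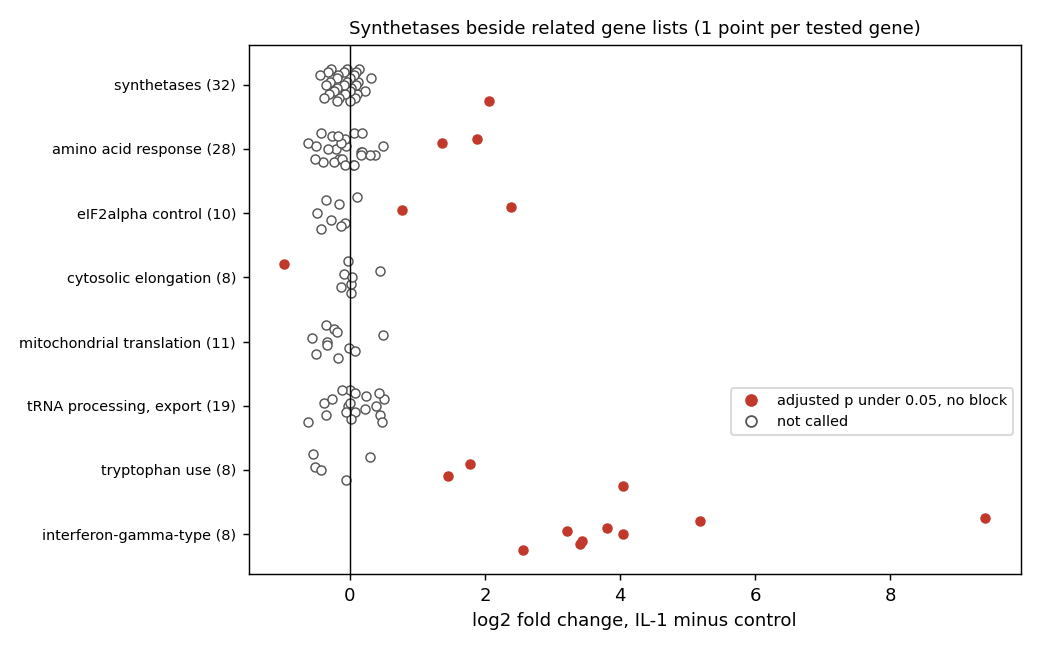
Log2 fold change, IL-1 minus control (horizontal axis), of the tested synthetases and of 7 related gene lists, 1 point per gene, with the number tested in brackets. Red points were called without a block. Among the synthetases only WARS1 is red, while all 8 genes of the list named interferon-gamma-type are. Points of CXCL10, IDO1 and TDO2 are fitted values of genes not above background in controls.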

How the data were processed

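Total RNA of 6 SW1353 samples was read on Illumina bead arrays, 1 colour and 1 array per sample. The authors deposited, per the file headers, a linear, not normalized signal intensity of 48784 probes, with the detection p-value of each. The authors also deposited log2 values for the same arrays, and how these were normalized is not given in the sources used here. For tools, the submitters' processing notes name lumi, with no version. The deposited log2 columns had medians near 5.87 in the Allstars arrays and 6.50 in the Sample arrays, their direction followed each array's own signal (r from 0.983 to 1.00), and how they were scaled stays unknown.

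Intensities were corrected and quantile normalized with neqc in limma 3.58.1 (R 4.3.3, offset 16). A filter of detection p under 0.01 in 3 or more of the 6 arrays left 13017 probes. In the platform annotation that gave the gene names, 28085 probes had 1 gene, 13 had several and 20686 were unlisted. The probe with the highest mean stood for a gene, which left 9078 genes. Different probes are not compared in level. IL-1 was tested against control with lmFit and eBayes with a trend, with no block, and p-values were Benjamini-Hochberg adjusted over all 9078 genes at 0.05. Title series as a block, each title series alone and their interaction were also fitted. For a gene not above background on any control array, the fold is a lower bound, taken against the lowest signal among probes well above background. The number of arrays limits the precision, and the steps were tested on simulated data.

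The members and the related lists were chosen with earlier results of these data known. All members are accounted for. From each related list the 3 called genes with the largest fold changes are named, as are ATF4, DDIT3, ASNS, TRIB3, EEF1E1, XPOT, IDO1 and IRF1 whatever their values. EEF1E1 had no named probe, and 1 further gene of that rule is not reported here. Alternatives were other background corrections, scalings, filters and weights, the deposited log2 values, and leaving out each array. Promoter sequence and gene positions came from RefSeq (GRCh38.p14).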

Additional observations from a re-analysis of the deposited data

How the results depend on the processing

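WARS1 was called in every setting that was tested, with a log2 fold change between 1.93 and 2.25. The other 31 members gave 0 calls except in the fits with a block, in the Allstars arrays alone and with array weights. In the fit without a block given above, 5 of these 31 had an unadjusted limma p under 0.05. With a replicate block 2 members rose and 7 fell (5 cytosolic, 2 mitochondrial), and with title series as a block the counts were 2, 7, 5 and 2. In the Allstars arrays alone 4 fell, all cytosolic, and with array weights 2 rose (WARS1 and KARS1) and 4 cytosolic members fell. The settings added after seeing the data gave 2 rises and 4 falls (equal medians with title series as a block) and 6 falls (deposited log2 values with that block). Calls over all genes were not counted in these added settings, so their member counts cannot be set against a share. Over all genes, 552 rose, against 1214 with the replicate block, 1181 with title series, 1048 in the Allstars arrays and 1154 with weights. Falls numbered 267, against 2109, 2015, 1534 and 1787 in the same order, and 170 both on the deposited log2 values and with no detection filter. In the amino acid response list 4 rose in each of those 4 fits and 7, 7, 5 and 5 fell. Leaving out 1 array gave 350 to 612 rises, lowest without IL-1 replicate 1, and 67 to 353 falls, with 67, 68, 76 and 91 when control replicate 1, control replicate 2, IL-1 replicate 1 and IL-1 replicate 2 were dropped in turn. The amino acid list then gave 1 to 3 rises (1 without control replicate 1, IL-1 replicate 1 or IL-1 replicate 2) and 0 to 1 falls (1 without IL-1 replicate 3).

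The replicate number was not taken as a pairing. Within the Allstars arrays the deviations of same-numbered arrays correlated at 0.0822, and number 3 is not in the labels. Over all 6 arrays, each IL-1 array's deviations correlated best with those of its own number, at 0.531, 0.551 and 0.818. These deviations also hold the difference between the title series. The differently numbered Allstars pairs were nearly as high, at 0.478 and 0.487, and pairs across the title series lay between -0.673 and -0.620.

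In settings with a test, the sign turned for 16 members, with log2 fold changes of at most 0.29 in size. In the Sample arrays alone, which allow no test, 8 members had the opposite sign, among them FARS2 at -0.042 and LARS2 at -0.11, which makes 18 in all. Both with and without the block, equal medians put FARSB at 0.10, GARS1 at 0.022, MARS1 at -0.0043, RARS1 at 0.11, YARS2 at 0.029, and the deposited log2 values put CARS2 at 0.00695, HARS1 at -0.0058, MARS1 at -0.0496, RARS1 at 0.031, VARS1 at -0.034. The Allstars arrays alone put CARS2 at 0.089, VARS2 at 0.0047, and weights put CARS2 at 0.076, FARSA at -0.12. Leaving out 1 array gave CARS2 -0.11 to 0.078, EARS2 -0.12 to 0.32, FARSA -0.069 to 0.34, FARSB -0.30 to 0.26, GARS1 -0.33 to 0.081, MARS1 -0.14 to 0.17, MARS2 -0.43 to 0.051, NARS2 -0.62 to 0.056, RARS1 -0.094 to 0.057, TARS1 -0.19 to 0.38, VARS1 -0.053 to 0.092, VARS2 -0.37 to 0.28, WARS2 -0.16 to 0.44, YARS1 -0.23 to 0.0063, YARS2 -0.18 to 0.18. The cause was not tested. Low signal limits MARS2, TARS2, PARS2 and AIMP1.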
